A study of Homo sapiens with 6 samples.

Results

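S100 proteins are small calcium-binding proteins, and 10 of their genes were followed here after GNE, the enzyme that starts sialic acid synthesis, was silenced in Capan-1. This established cell line comes from a human carcinoma of the pancreas. The genes are S100A2, S100A4, S100A6, S100A8, S100A10, S100A11, S100A13, S100A14, S100A16 and S100P, and they were represented by all 14 probe sets that the platform annotation assigns to one of them alone, out of 41097 probe sets with a single gene (19775 genes). The study hybridised 6 Affymetrix arrays. On 3 of them was RNA of cells given small interfering RNA against GNE (siGNE), and on the other 3 RNA of cells given a control siRNA that the labels call allStar. All cells received 2 transfections 48 h apart and were harvested 72 h after the second. Titles number the arrays 1 to 3 in each group, and arrays of one number are called a pair. How many siRNAs targeted GNE is not stated in the labels. Nor is it stated that replicates were cultured separately, and the p-values therefore rest on a spread between arrays that may be only technical. All cells were of 1 line, and the transcripts of these cells, not the proteins or their release, were measured.

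Most S100 proteins form dimers, bind calcium through EF-hand loops and then expose a surface that grips a partner protein. Inside the cell the partners include annexins, myosin and co-chaperones, and outside it released S100 proteins are ligands of receptors such as AGER (also called RAGE) and TLR4. Several members, S100P among them, are known as abundant transcripts of pancreatic ductal carcinoma.

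Values are log2 expression values as deposited, where values near the array median (2.96 to 3.02 over the 6 arrays) are close to background. Probe sets with a mean above 4 over all arrays were tested, 22085 in all, and 11 of the 14 S100 probe sets were among them, covering 9 of the 10 genes. A probe set was called higher or lower at an adjusted p under 0.05 in limma, fitted to all tested probe sets with the pair as a block. GNE itself read 11.12, 11.47 and 10.86 on control arrays 1 to 3 and 8.39, 9.86 and 9.57 on siGNE arrays 1 to 3. It fell by 1.88 (SE 0.29, limma adjusted p 0.0348) on the log2 scale, with a limma adjusted p of 0.131 without the block. The 8 markers of ductal epithelium (KRT7, KRT8, KRT18, KRT19, EPCAM, CDH1, MUC1 and SOX9) had values from 10.35 to 15.30 in control and from 10.31 to 15.45 in siGNE cells, and 0 of the 8 passed the test, where 9.49% of all tested probe sets were called.

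Transcripts of 3 S100 genes fell after GNE silencing and 1 rose. S100A4, S100A2 and S100A13 fell to 46.2%, 50.4% and 65.1% of their control level, and S100P rose to 182%. Of the other genes, S100A14 was higher on every siGNE array without passing, S100A6, S100A10, S100A11 and S100A16 differed by at most 0.12 in either direction at their brightest probe set, and S100A8 was at background. By probe set, 1 of 11 was called higher and 3 of 11 lower, where 4.13% and 5.35% of all tested probe sets were called in those directions (9.49% in either). The siGNE and control values did not overlap for 5 of the 11, against 20.4% of all tested probe sets, with siGNE higher for 2 (8.39% of all) and lower for 3 (12% of all). The median difference over the 9 tested genes was -0.09, and over all 10862 tested genes it was -0.019. An unadjusted p under 0.05 was found for 5 of the 11, against 31.6% of all tested probe sets. These S100 genes were chosen with earlier results of these data known. The shares therefore describe the genes and are no test of the list. In such bulk samples, fewer cells with a transcript and less of it per cell cannot be told apart. All 4 calls needed the pairing: in limma without the block 0 of the 11 were called and 5 had an unadjusted p under 0.05, against 9 called of 22085 (0.0408%) and 14.6% with an unadjusted p under 0.05. With 1 pair left out, limma called 0 of all 22085 probe sets, with 5022 to 5529 at an unadjusted p under 0.05, and so 0 of the 11 S100 probe sets, with 4 to 5. With no filter it called 0 of all 54613 probe sets, with 7167 at an unadjusted p under 0.05, and 0 of the 14 S100 probe sets, with 6. The loss of the calls with 1 pair left out and with no filter was therefore shared by every probe set in those fits. Without the block, 9 other probe sets were called.

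**Figure D1:**
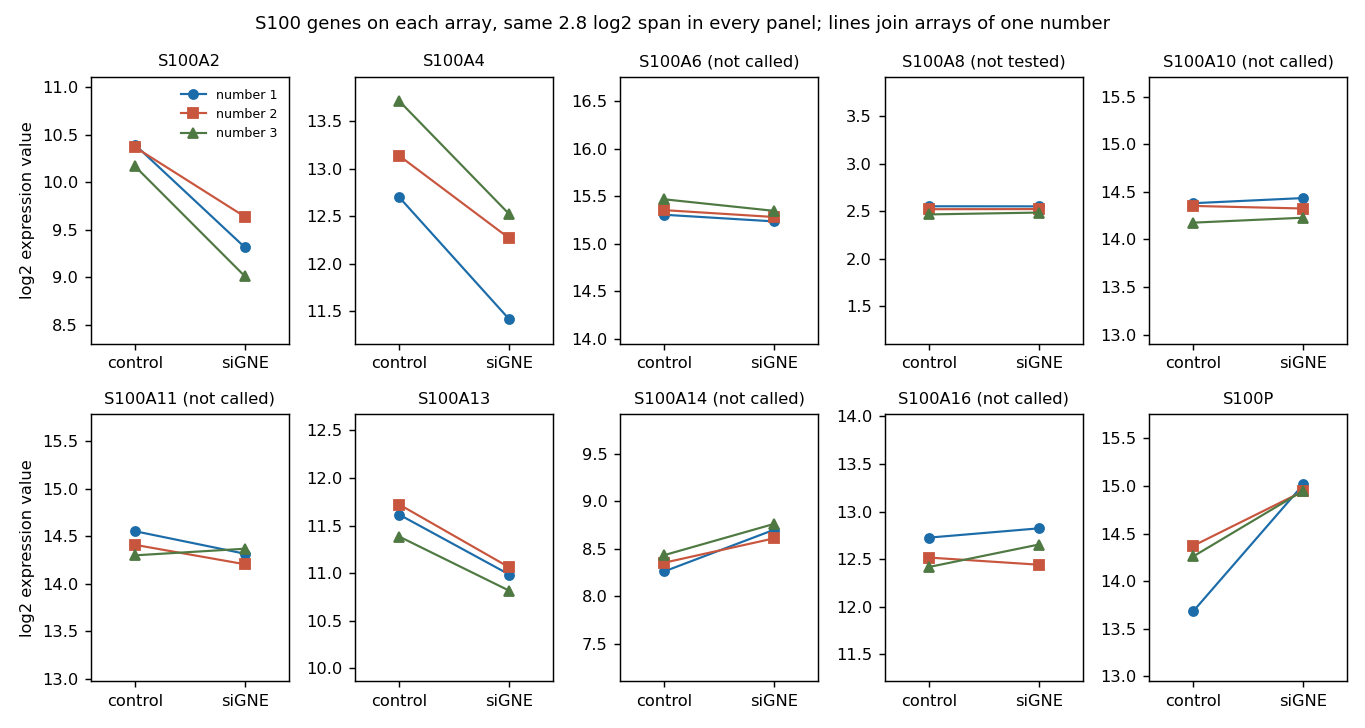
Log2 expression values of the 10 S100 genes (brightest probe set each) on control and siGNE arrays, every panel spanning the same log2 range; each line joins the arrays of one number. Lines of S100A2, S100A4 and S100A13 run down and those of S100P run up in all 3 pairs, while S100A8 stays at about 2.5, which is background.

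The sequences before the transcription starts are shown for the 4 genes called among the 10 followed. Whether these sequences bear on the differences was not tested. Each is the stretch of 130 bases that ends just before the start, from the first promoter window of that gene in RefSeq (GRCh38.p14), read 5′ to 3′ on the gene's strand. S100A4 (chr1:153545807-153545936), S100A2 (chr1:153565845-153565974) and S100A13 (chr1:153634362-153634491) lie on the minus strand and S100P (chr4:6693748-6693877) on the plus strand. Capitals mark matches to 4 short motifs, searched on both strands.
S100A4: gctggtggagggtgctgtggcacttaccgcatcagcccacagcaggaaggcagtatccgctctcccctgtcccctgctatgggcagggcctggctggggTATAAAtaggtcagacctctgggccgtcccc
S100A2: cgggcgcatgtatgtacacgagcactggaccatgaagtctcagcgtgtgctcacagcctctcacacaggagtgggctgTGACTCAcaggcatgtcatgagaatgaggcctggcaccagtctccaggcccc
S100A13: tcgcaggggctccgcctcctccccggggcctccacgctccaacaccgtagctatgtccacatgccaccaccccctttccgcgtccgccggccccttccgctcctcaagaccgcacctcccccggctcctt
S100P: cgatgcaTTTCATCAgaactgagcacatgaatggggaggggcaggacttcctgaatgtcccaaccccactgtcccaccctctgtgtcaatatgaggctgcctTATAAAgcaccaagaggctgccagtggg
The motifs were the TATA box core TATAAA, the AP-1 site TGANTCA, the antioxidant response element core TGACNNNGC and the core TGATGNAA of the composite element bound by C/EBP and ATF factors. S100A4 and S100P held TATAAA with its first base 31 and 28 bases before the start. TATAAA was also in a window of S100A13 at another start and in windows of S100A8, which overlap and hold the same site. In all, 5 of 16 windows of 4 of the 10 genes held it, while 11.5% of all 35116 windows of 300 bases did. These counts are of windows, not of separate sites. The AP-1 letters were in S100A2 alone of the 10 genes, beginning 52 bases before the start, and in 7.71% of all windows. The composite letters were in S100P alone, read on the reverse strand and beginning 123 bases before the start, and in 3.62% of all windows. The antioxidant letters, which share TGAC with the AP-1 site and could overlap it, were in S100A13, S100A14 and S100A16, in no stretch shown, and in 13.3% of all windows. A match is a description of the letters and not a binding site. The stretch of S100A13 shown held no match. G and C made up 70.8% of it, 63.8% of the stretch of S100A4, 59.2% of that of S100A2 and 53.8% of that of S100P. Which starts are used in Capan-1 cells was not tested.

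S100A4 had the smallest p-value of the members. The protein, also known as metastasin, binds non-muscle myosin and is known for its part in cell motility and metastasis. Its probe set read 12.70, 13.13 and 13.71 on control arrays 1 to 3 and 11.41, 12.27 and 12.52 on siGNE arrays 1 to 3. Array 1 was lowest and array 3 highest in both groups, so that siGNE array 3 came close to control array 1 although the groups did not overlap. S100A4 fell by 1.11 (SE 0.11, limma adjusted p 0.0242), with pair differences of -1.28, -0.87 and -1.19. The SE was 0.37 without the block, with a limma adjusted p of 0.255, since the spread between numbers (SD 0.51 in control and 0.58 in siGNE cells, n = 3 each) then counted as error.

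S100A4 is also a transcript of fibroblasts and S100A8 and S100A9 are transcripts of myeloid cells, and markers of those cells were read on the same arrays. Of 8 fibroblast markers, 7 (COL1A2, COL3A1, DCN, LUM, PDGFRB, FAP and THY1) lay between 1.97 and 3.09, at background, and COL1A1 was higher, by 0.71 (limma adjusted p 0.0441, and 0.512 without the block). The summed linear level of the 8 ran from 221.9 to 489.8 on control and from 333.5 to 642.5 on siGNE arrays, most of it from COL1A1. Of 6 myeloid markers with a probe set of their own, CD14, CSF3R, FCN1, ITGAM and PTPRC lay between 2.10 and 3.59, and LYZ, which epithelial cells also make, differed by 0.03. The summed level of the 6 ran from 1180 to 3117 on control and from 1662 to 2803 on siGNE arrays. All cells were of the Capan-1 line, so these levels are read as transcripts of that line. No share of fibroblasts or myeloid cells was estimated or tested.

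S100A2, an epithelial member found mainly in the nucleus, read 10.40, 10.37 and 10.17 in control cells and 9.32, 9.64 and 9.01 in siGNE cells, by array number. Every siGNE value lay clearly below every control value. S100A2 fell by 0.99 (SE 0.12, limma adjusted p 0.0272, and 0.110 without the block), with pair differences of -1.08, -0.73 and -1.16.

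S100A13 takes part in the release of FGF1 and interleukin-1 alpha by a route without a signal peptide. Its brighter probe set read 11.61, 11.72 and 11.38 in control and 10.98, 11.06 and 10.81 in siGNE cells. The groups did not overlap and the pairs differed least among the genes called, at -0.63, -0.66 and -0.57. S100A13 fell by 0.62 (SE 0.08, limma adjusted p 0.0291, and 0.143 without the block). The other S100A13 probe set lay between 2.19 and 3.65, was not tested and showed no common direction, and averaging it with the first gave a difference of -0.35 with a limma adjusted p of 0.220.

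S100P, a ligand of AGER first purified from placenta, read 13.69, 14.37 and 14.26 in control cells and 15.02, 14.95 and 14.95 in siGNE cells. The siGNE values were nearly equal (SD 0.04) while control array 1 was low (SD 0.37 over the control arrays), and the groups did not overlap. S100P rose by 0.86 (SE 0.17, limma adjusted p 0.0477, and 0.143 without the block), with pair differences of 1.33, 0.57 and 0.69. Without pair 1 the difference was 0.63, and the range with 1 pair left out was 0.63 to 1.01. The siGNE values lay near the top of the range, where the highest value of any probe set was 16.34.

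**Figure D2:**
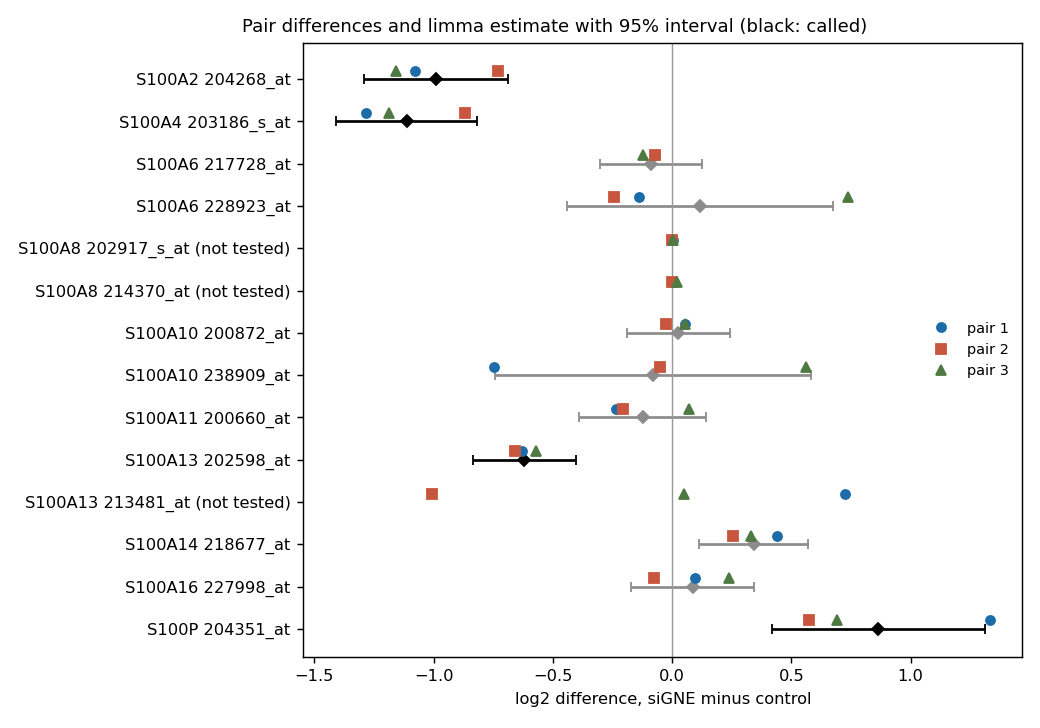
Log2 difference, siGNE minus control, of all 14 S100 probe sets: coloured symbols are the 3 pairs, diamonds the limma estimate with the block and bars its 95% interval, black where called. S100A4, S100A2 and S100A13 lie below 0 and S100P above it in every pair; 3 probe sets near background were not tested and have no interval.

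S100A14, a member found in epithelia, read 8.26, 8.35 and 8.43 in control and 8.70, 8.61 and 8.76 in siGNE cells. Its values did not overlap between the groups, yet the difference of 0.34 (SE 0.09, limma adjusted p 0.0753) missed the threshold, with a 95% interval from 0.11 to 0.57. It passed where the probe sets of each gene were averaged, a fit over fewer features (limma adjusted p 0.0388).

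S100A6, S100A10, S100A11 and S100A16 did not pass, and at their brightest probe sets the groups lay close together. S100A6, known as calcyclin, read 15.31, 15.35 and 15.47 in control and 15.24, 15.28 and 15.35 in siGNE cells, with a difference of -0.09 and a 95% interval from -0.30 to 0.12. S100A10, the partner of annexin A2 that holds its active shape without calcium, read 14.38, 14.35 and 14.18 in control and 14.43, 14.32 and 14.23 in siGNE cells, a difference of 0.03 with an interval from -0.19 to 0.24. S100A11, a partner of annexin A1, read 14.55, 14.41 and 14.30 in control and 14.32, 14.20 and 14.37 in siGNE cells, a difference of -0.12 with an interval from -0.39 to 0.14. The groups overlapped for each of these 3, with values that lay in the upper part of the arrays' range. S100A16, a broadly expressed member, read 12.73, 12.52 and 12.42 in control and 12.82, 12.44 and 12.65 in siGNE cells, a difference of 0.09 with an interval from -0.17 to 0.34. These intervals of the brightest probe sets leave room for changes of up to about 0.39, and the values do not show that the levels were equal. S100A6 and S100A10 each had a dimmer probe set, with differences of 0.12 and -0.08, opposite in sign to the brighter one, and pairs that disagreed in direction. Their 95% intervals were wider, from -0.44 to 0.68 for S100A6 and from -0.74 to 0.58 for S100A10. Of the 4 brightest probe sets here, 0 passed in limma, and 0 had an unadjusted p under 0.05.

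S100A8, which pairs with S100A9 to form calprotectin, was at background. Its probe sets read between 2.03 and 2.07 and between 2.47 and 2.55 on all arrays, so a level in Capan-1 cells was not detectable and no difference was tested.

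The other S100 genes were read from a list of 11, of which 10 had a single-gene probe set and 3 were tested. S100A9 read 9.27, 8.96 and 9.09 in control and 8.62, 8.17 and 7.89 in siGNE cells. It fell by 0.87 (SE 0.13, limma adjusted p 0.0344, and 0.154 without the block), from groups that did not overlap. S100A5, a member studied mostly in sensory neurons, read 6.96, 7.03 and 7.04 in control and 5.34, 6.25 and 6.02 in siGNE cells. It fell by 1.14 (SE 0.18, limma adjusted p 0.0352, and 0.131 without the block), again from groups that did not overlap. S100A3 read from 5.27 to 6.10 in control and from 5.48 to 5.54 in siGNE cells, with a difference of -0.14 and an interval from -0.57 to 0.30. The median over the 3 was -0.87. The other 7 genes (S100A1, S100A7, S100A7A, S100A12, S100B, S100G and S100Z) lay between 2.06 and 3.43 and were not tested.

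Of the S100 genes read here, 16 lie on chromosome 1, and 11 of them were tested, with values on both sides of 0. In the order of the RefSeq annotation (GRCh38.p14), S100A6 (-0.09) is followed by S100A5 (-1.14), S100A4 (-1.11), S100A3 (-0.14), S100A2 (-0.99), S100A16 (0.09), S100A14 (0.34) and S100A13 (-0.62). The falls of S100A4 and S100A2 thus stood on either side of S100A3, which did not pass, and that of S100A13 beside S100A14, whose value was above 0. Whether neighbours differed from each other was not tested. The annotated spans of S100A5 and S100A4 overlap at one end and S100A1 lies within that of S100A13 on the opposite strand, and the assignment of each probe set is that of the platform annotation. S100P lies alone on chromosome 4.

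**Figure D3:**
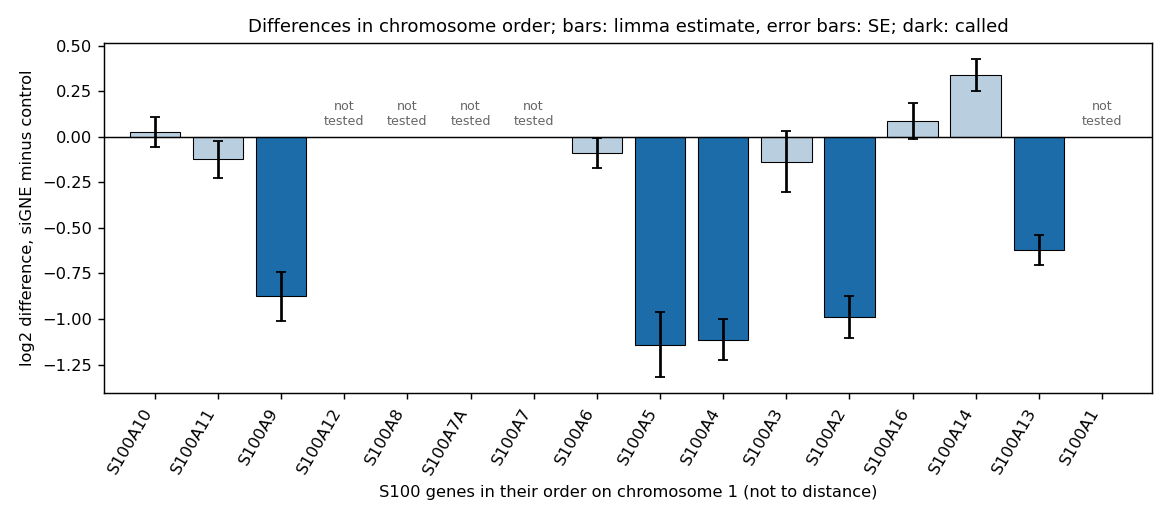
Limma log2 difference, siGNE minus control (bars) with SE (error bars), of the 16 S100 genes on chromosome 1 in chromosome order, not drawn to distance; dark bars were called. S100A9, S100A5, S100A4, S100A2 and S100A13 were called lower, with uncalled genes between most of them, and 5 genes at background have no bar.

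Proteins known to work with S100 proteins were read from 5 lists, and 2 of their 24 tested genes were called, both lower. By probe set, 1 of 12 was called in the annexin and AHNAK list and 2 of 17 among the cytoskeletal targets. The calls were 0 of 7 for receptors, 0 of 21 for co-chaperone partners and 0 of 1 for release partners. Of all tested probe sets, 9.49% were called. Among 6 annexin and AHNAK genes, ANXA6, a membrane-binding annexin, fell by 0.59 (SE 0.09, limma adjusted p 0.0356, and 0.297 without the block), from 8.18, 7.78 and 7.55 in control to 7.47, 7.32 and 6.96 in siGNE cells. Its other probe set lay between 2.32 and 2.84 at background, and averaging them gave -0.22 (limma adjusted p 0.148). The other 5 did not pass (median of the 6 genes 0.06), among them ANXA2, the partner of S100A10, at 0.13 and ANXA1, the partner of S100A11, at 0.32. The receptors AGER and CD36 lay between 2.64 and 3.20 and were not tested, and ALCAM (0.29), TLR4 (0.17) and BSG (0.11) did not pass. The TLR4 probe sets disagreed in sign.

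Among 6 cytoskeletal targets (median -0.37), the scaffold IQGAP1, a partner of S100P, fell by 0.49 (SE 0.09, limma adjusted p 0.0431, and 0.190 without the block), from 12.56, 12.54 and 12.39 in control to between 11.86 and 12.18 in siGNE cells. Other IQGAP1 probe sets differed by -0.16 and -0.16 and did not pass, and the average of the probe sets gave -0.27 (limma adjusted p 0.0761). The non-muscle myosin heavy chains MYH9 (-0.32), MYH10 (-0.60) and MYH14 (-0.42), of which MYH9 is the main partner of S100A4, did not pass, nor did EZR (-0.0018) or TPM1 (-0.07) at the probe sets used. A dimmer TPM1 probe set fell by 0.76 (limma adjusted p 0.0476, and 0.363 without the block), and it was singled out after its value was seen. Among 8 co-chaperone, ubiquitin and phosphatase partners (median 0.06), 0 were called in limma. An unadjusted p under 0.05 was found for 4 of their 21 tested probe sets with the block, against 31.6% of all, and for 2 without it, against 14.6% of all. PPID, a cyclophilin that holds co-chaperone repeats, differed by 0.41 (limma adjusted p 0.0644) and SUGT1 by 0.24 (limma adjusted p 0.230), while other SUGT1 probe sets disagreed in sign. CACYBP, named for its binding to S100A6, differed by 0.04 and S100PBP, named for binding S100P, by -0.00023, while another S100PBP probe set differed by 0.44 (limma adjusted p 0.192). Of the cargo and partners of S100A13 in release, FGF1 and SYT1 lay between 2.25 and 2.75 at background and IL1A differed by 0.03 with an interval from -0.57 to 0.62.

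**Figure D4:**
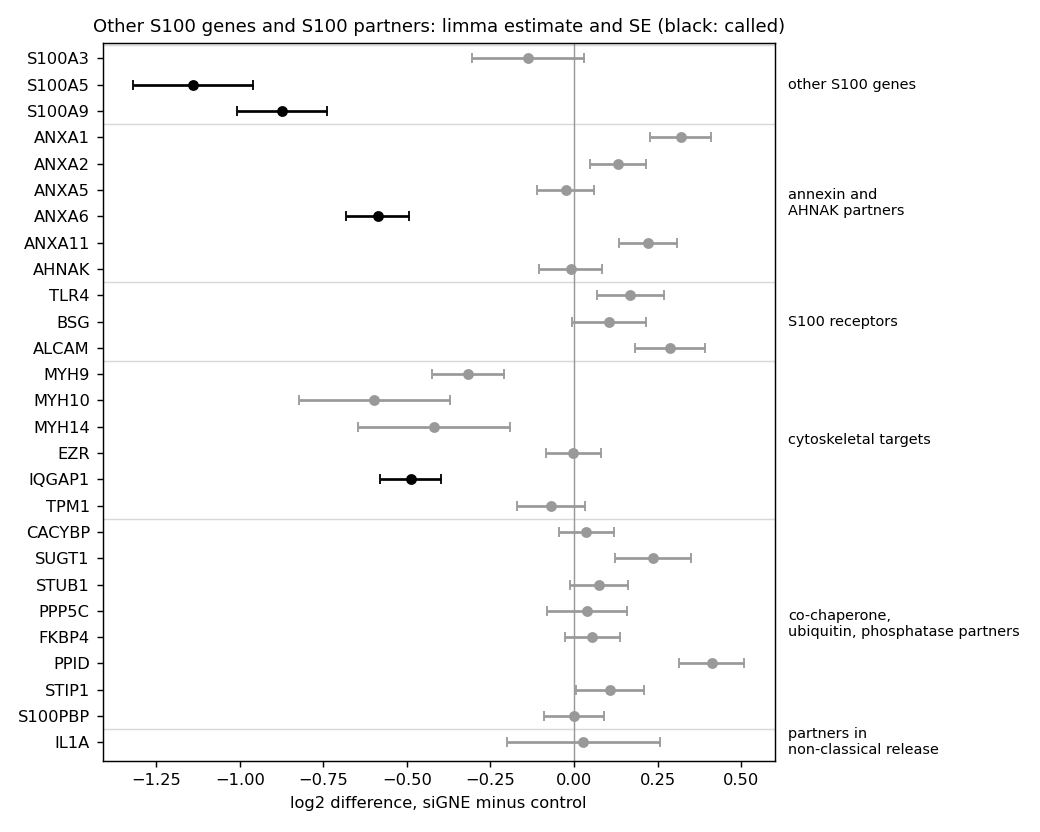
Limma log2 difference, siGNE minus control, with SE for the tested genes of 6 lists of other S100 genes and S100 partners (1 probe set a gene), black where called. S100A5, S100A9, ANXA6 and IQGAP1 were called, all to the left of 0.

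Over the 6 arrays, the genes whose log2 values ran most like those of S100A4 among 10861 others were CYP24A1, the vitamin D hydroxylase (Pearson r 0.999), SPTLC1, a subunit of serine palmitoyltransferase (0.997), and ZMYND11, a histone reader (0.993). These correlations span both groups and all 3 pairs, so the points share the pair and the treatment. The differences of these genes were smaller than that of S100A4, at -0.40, -0.16 and -0.53, with limma adjusted p of 0.0534, 0.267 and 0.0422. Only ZMYND11 of the 3 was called, and its limma adjusted p was 0.356 without the block.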

How the data were processed

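Expression was measured on 6 Affymetrix arrays. The deposited values are log2 expression per probe set, made by the authors with GCRMA, which models background from probe sequence, per the submitters' processing notes. Its version is not given in the sources used here. Values ran from 0.612 to 16.34, as on a log2 scale. They were used as deposited, and the number of arrays limits the precision.

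Gene names came from the platform annotation and were updated through a RefSeq gene table of GRCh38.p14. Of 54675 probe sets, 41097 had 1 gene symbol, 1801 several and 11777 none, and 41043 of the 41097 matched the gene table. A gene was represented by its tested probe set with the highest mean, without those marked as prone to cross-hybridisation where it had another.

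The test was limma 3.58.1 in R 4.3.3 (lmFit and eBayes, 2 residual degrees of freedom, Benjamini-Hochberg over 22085 probe sets with a mean above 4, without 62 control probe sets), with the number in the titles as a block, since the comparison is defined as paired by that number. This fit was also run on simulated arrays with known changes, as a check of the estimated sizes. That check does not bear on the calls reported here. Same-numbered arrays of the 2 groups deviated together from their group means (correlations 0.58, 0.71 and 0.83, others -0.64 to 0.17). The fit without the block has 4 residual degrees of freedom. Named are all members, GNE, and of each list the genes called or up to 2 with the smallest p-value, and other list genes as further values. The members, lists and motifs were chosen with earlier results of these data known.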

Additional observations from a re-analysis of the deposited data

How the results depend on the processing

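The fall of S100A4, S100A2 and S100A13 and the rise of S100P kept their direction under every alternative run. For these genes, dropping the block or changing the filter, floor, variances or threshold leaves the estimate unchanged by construction. Those alternatives therefore could not have turned a direction. The calls of these genes depended on the replicate block, the filter and the number of pairs. Without the replicate block, 0 S100 probe sets were called higher and 0 lower, 0 of the other S100 genes lower, and 0 annexin and 0 cytoskeletal probe sets lower, and with no filter these counts were also 0. Without the block, the unadjusted p was under 0.05 in limma for 5 of the 11 S100 probe sets, 2 of the 3 other S100, 1 of the 12 annexin and 1 of the 17 cytoskeletal ones, against 14.6% of all probe sets. With no filter it was under 0.05 for 6 of 14, 2 of 12, 8 of 17 and 3 of 23 of them, against 7167 of all 54613. With 1 replicate number left out in turn, every one of these counts was 0 (lowest 0, highest 0), with 1 residual degree of freedom, and over all 22085 probe sets limma then called 0, with 5022 to 5529 at an unadjusted p under 0.05, so those fits say little about stability. At an adjusted p under 0.1, 2 S100 probe sets were called higher, 1 annexin and 1 receptor probe set higher, and 1 co-chaperone probe set higher and 1 lower. With the probe sets of each gene averaged, 2 S100 genes and 1 receptor were called higher and 0 annexin and 0 cytoskeletal genes lower. With a mean above 6, 1 cytoskeletal probe set was lower and 1 co-chaperone probe set higher. The co-chaperone list had 1 called higher with median centring, 1 with array weights and 2 with trended and robust variances, where the annexin list had 1. Over all probe sets, limma called 2095 with the block, 9 without it, 0 with no filter, 3318 of 17580 with a mean above 6, 3357 with trended and robust variances and 4823 at an adjusted p under 0.1. It called 2676 with median centring, 2398 with array weights and 1537 of 10074 genes with probe sets averaged. Most of these alternatives thus called more of all features than the main fit.

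Signs turned for values near 0. With probe sets averaged, S100A6 was 0.015, S100A10 -0.027, TLR4 -0.029 and SUGT1 -0.025. The dimmer S100A10 probe set was 0.027 with array weights. With 1 replicate number left out it ran from -0.40 to 0.25, the dimmer S100A6 probe set from -0.19 to 0.30 and IL1A from -0.18 to 0.36. Over the 10 alternatives that keep all arrays, the difference ran from -1.11 to -1.07 for S100A4, -0.99 to -0.95 for S100A2, -0.62 to -0.35 for S100A13 and 0.78 to 0.91 for S100P. Several of these 10 leave the estimate unchanged by construction, so the ranges rest on the others. The median over the 9 member genes moved by less than its spread between pairs (SD 0.07) under every alternative run. Leaving out 1 array of a pair gives the same fit as leaving out the pair. Values near background can understate a difference, which limits S100A8, AGER and the other genes that were not tested.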
